A study of Mus musculus with 6 samples.

Results

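The 30 genes described here encode the enzymes and regulators of cholesterol and fatty acid synthesis, and were chosen by name, as members of these pathways, out of the 54446 genes in the count table of TRAMP-C2 cells. They comprise 5 regulators of the sterol response, 7 enzymes of the early mevalonate steps, 11 enzymes from squalene to cholesterol, 1 sterol carrier and 6 enzymes of fatty acid synthesis and desaturation. All 30 passed the filter on low counts, which 14956 genes passed. TRAMP-C2 is a single cell line from a prostate tumor of a male C57BL/6 mouse. Cells were left untreated (control) or exposed to 2 µM oxaliplatin (Oxali) or 2 µM cisplatin (Cis) for 24 h, with 2 libraries of polyadenylated RNA in each of the 3 groups. All groups, control included, grew in medium with serum, insulin and the androgen precursor dehydroisoandrosterone. Both drugs bind platinum to DNA. They differ in the ligands on the platinum, which are ammine and chloride groups in Cis and a diaminocyclohexane and an oxalate group in Oxali.

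Cells make cholesterol from acetyl-CoA through mevalonate, isoprenoid diphosphates, squalene and lanosterol, and make saturated fatty acids from the same acetyl-CoA, which desaturases then convert to monounsaturated ones. Both branches are controlled by SREBP transcription factors, which are held in the endoplasmic reticulum by INSIG proteins while sterols are plentiful. When sterols run low, SCAP carries SREBP to the Golgi, where proteases release its active part, which enters the nucleus and switches on the genes of both branches. SREBP-2, from Srebf2, acts mainly on sterol genes, and SREBP-1, from Srebf1, mainly on fatty acid genes. Nuclear factor Y (NF-Y) and SP1 bind many of the same promoters beside SREBP.

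Library totals lay between 21345312 and 24041767 counts, which makes 3 counts, the limit for a gene at 0, equal to 0.125 to 0.141 CPM (counts scaled to a common library total). This limit covers counting error only, since the reads carried no molecular identifiers and may be copies of one molecule. Nothing in the sample descriptions says that the libraries of a group came from separate cultures, so p-values measure only the spread between these libraries, which may be technical. The mesenchymal markers Vim, Fn1, Cdh2, Zeb1, Twist1 and Col1a1 all passed the filter. They summed to 13037 to 13397 CPM in control, 11982 to 12373 in Oxali and 11165 to 11646 in Cis libraries. Col1a1 was lower after both drugs (log2 fold changes -0.26 and -0.34), while Vim was higher after both (0.12 and 0.28). Fn1 was lower after Cis only (-0.26), and Cdh2, Zeb1 and Twist1 did not pass an adjusted p of 0.05 (DESeq2) against control. Of 6 epithelial markers 4 passed, with sums of 31.9 to 34.0 CPM in control, 33.8 to 34.5 in Oxali and 41.9 to 42.1 in Cis libraries. Cdh1 was 0.53 higher after Cis on the log2 scale (DESeq2 adjusted p = 8.62e-04) and was not called after Oxali. Krt14 was 0.68 higher after Oxali (adjusted p = 0.0408) and was not called after Cis. Krt8 and Krt18 were not called against control. Among prostate luminal markers Fkbp5 passed and fell by 0.28 on the log2 scale after Oxali (adjusted p = 6.72e-06), while Pbsn, Hoxb13 and Tmprss2 had at most 3 counts in any library. None of 4 adipocyte and 4 hepatocyte markers passed, and their sums stayed at or below 0.089 CPM in every library. Immune markers summed to 1.47 to 2.32 CPM with Ptprc at 0 or 1 count, and endothelial markers to 1.03 to 1.22 CPM in control and 2.29 to 3.14 CPM in the drug groups, with Cdh5 at 0 or 1 count. Whether these shifts had a part in the results below was not tested. In bulk RNA, a change in the number of cells of a state and a change in RNA per cell cannot be told apart.

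Promoters of the members were read first, because the genes moved together after Oxali and are known to share transcription factors. RefSeq promoter sequences on GRCm38.p6 covered 24 of the 30 genes with 32 transcription starts, and Fdps, Fdft1, Sqle, Stard4, Scd1 and Scd2 had no entry. The 250 bases before each start were searched on both strands for 4 motifs. CCAAT, the NF-Y box, was present for 19 of 24 genes (79.2%), compared with 37.5% of all 27025 genes with a promoter. The GC box GGGCGG, which SP1 binds, was present for 20 of 24 genes (83.3%) and 35.4% of all genes. The E-box CACGTG was found for 5 of 24 genes (20.8%) and 6.86% of all genes. TCACNCCAC, a core of the sterol response element that SREBP binds, was found only for Hmgcs1 among the 24 genes, compared with 1.22% of all genes. A gene counted as having a match if any of its starts had one. Some windows lay inside annotated genes and may not be promoters in these cells. The only Acaca window (chr11:84195188-84195437) lay within the gene, which begins at 84129672. All 250 bases were annotated exon in the windows of Idi1 and Tm7sf2, and at start 3 of Dhcr7, the only Dhcr7 start with CCAAT. Counted by promoter, CCAAT was present in 62.5% of the 32 member promoters and 33.8% of all promoters. All genes here include genes that did not pass the filter on low counts, whereas all members passed it. A match is a description of the sequence and not a binding site, and the absence of a match says only that these letters were not in the window.

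The following promoters are shown for their differing numbers of CCAAT matches. Capitals mark matches to the sterol response element core and to CCAAT or its reverse complement ATTGG, and each sequence runs 5′ to 3′ on the strand of its gene, up to the base before the start. Hmgcs1 (chr13:119690101-119690350, plus strand) holds the sterol response element core 137 bases before the start, with CCAAT matches 237, 176 and 45 bases before it. Mvd (chr8:122443423-122443672, minus strand) and Ebp (chrX:8193513-8193762, minus strand) each hold 2 CCAAT matches. Fasn (chr11:120824548-120824797, minus strand) holds 3, of which those 62 and 59 bases before the start overlap. The first of 3 Insig2 starts (chr1:121332590-121332839, minus strand) also has 3 CCAAT matches, and is shown because Insig2 was not called in any comparison. Acly (chr11:100528001-100528250, minus strand) has none, and fell after Oxali.
Hmgcs1: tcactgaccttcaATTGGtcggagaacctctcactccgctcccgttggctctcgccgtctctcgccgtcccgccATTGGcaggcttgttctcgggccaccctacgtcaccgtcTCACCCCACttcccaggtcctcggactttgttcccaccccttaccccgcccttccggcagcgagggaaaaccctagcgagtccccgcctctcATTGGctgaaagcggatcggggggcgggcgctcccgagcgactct
Mvd: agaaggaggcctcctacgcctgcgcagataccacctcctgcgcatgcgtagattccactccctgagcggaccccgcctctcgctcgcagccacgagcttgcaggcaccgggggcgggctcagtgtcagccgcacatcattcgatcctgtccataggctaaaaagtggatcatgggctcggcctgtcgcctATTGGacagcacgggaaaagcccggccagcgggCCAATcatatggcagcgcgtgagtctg
Ebp: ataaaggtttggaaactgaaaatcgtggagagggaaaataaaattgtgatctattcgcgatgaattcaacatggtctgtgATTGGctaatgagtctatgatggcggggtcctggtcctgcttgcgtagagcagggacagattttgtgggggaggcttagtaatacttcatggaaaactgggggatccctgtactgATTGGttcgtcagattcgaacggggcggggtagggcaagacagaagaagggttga
Fasn: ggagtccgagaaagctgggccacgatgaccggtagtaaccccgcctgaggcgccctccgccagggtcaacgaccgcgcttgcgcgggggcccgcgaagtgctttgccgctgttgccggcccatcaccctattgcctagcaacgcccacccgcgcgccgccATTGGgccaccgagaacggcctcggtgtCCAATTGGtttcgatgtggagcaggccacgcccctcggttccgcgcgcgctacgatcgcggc
Insig2: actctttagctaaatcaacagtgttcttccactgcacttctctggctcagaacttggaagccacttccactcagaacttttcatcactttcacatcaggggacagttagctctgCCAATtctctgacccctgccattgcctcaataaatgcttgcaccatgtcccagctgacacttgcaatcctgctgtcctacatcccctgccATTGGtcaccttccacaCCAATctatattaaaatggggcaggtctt
Acly: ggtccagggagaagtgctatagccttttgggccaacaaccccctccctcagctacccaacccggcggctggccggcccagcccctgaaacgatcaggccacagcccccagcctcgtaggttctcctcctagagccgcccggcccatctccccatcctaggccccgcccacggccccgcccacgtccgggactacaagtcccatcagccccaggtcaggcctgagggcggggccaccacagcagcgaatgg

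**Figure D1:**
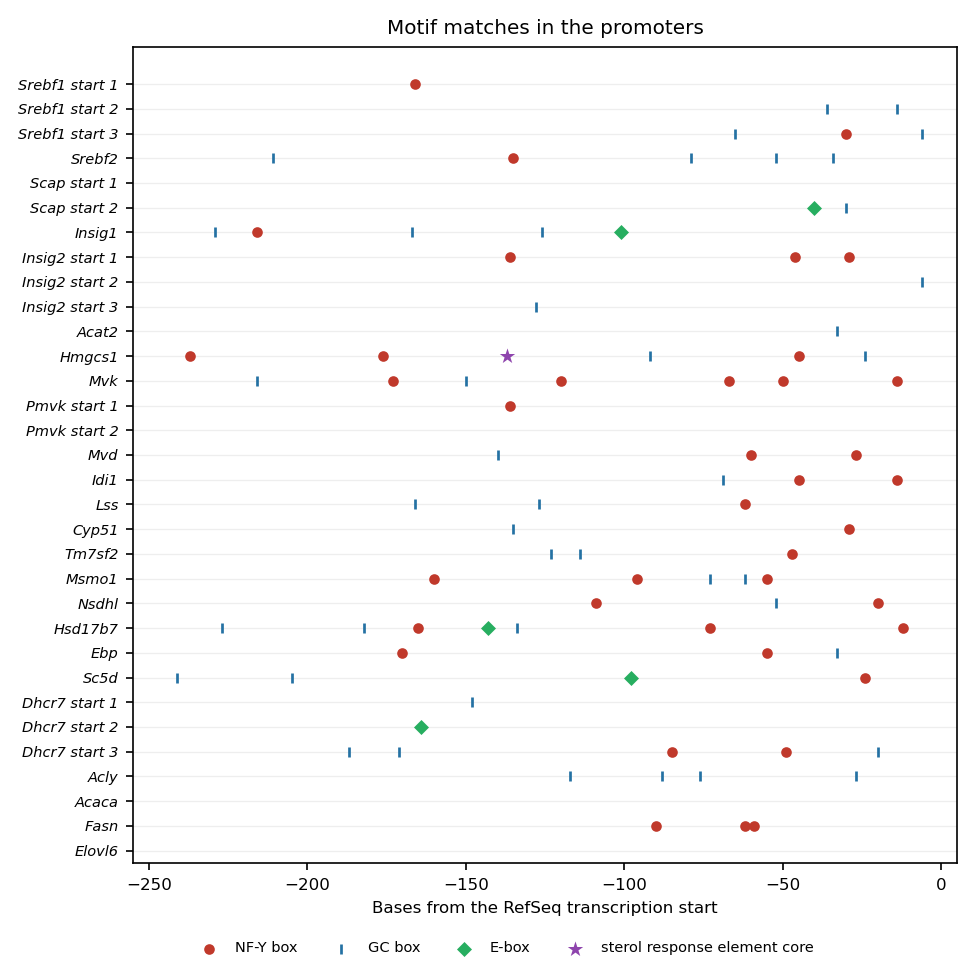
Each row is 1 of the 32 RefSeq starts of 24 member genes, and the horizontal axis gives bases from the start, over the 250 bases before it. Points mark matches to 4 motifs. CCAAT matches occurred for 19 genes and lay at most 237 bases before the start, and the single sterol response element core lay 137 bases before the Hmgcs1 start.

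Nearly all of the 30 genes, which were chosen with earlier results of these data known, were lower after Oxali. In that group 26 of the 30 genes were lower than in control, 0 were higher and 4 were not called (DESeq2, adjusted p below 0.05). At an unadjusted p below 0.05, or with edgeR's quasi-likelihood test, the number higher was also 0. Over all genes with an adjusted p, 11.8% were called lower and 13.3% higher in this comparison. The median log2 fold change of the 30 genes was -0.41, while that of all genes was 0.00 at 2 decimals (-0.0029). Changes were moderate in size, from -0.77 for Hmgcs1 to 0.06 for Insig2, which was not called. For 28 of the 30 genes both Oxali libraries lay on one side of both control libraries, which held for 64.8% of all genes. Among 4959 genes with a mean of at least 1000 normalised counts (counts divided by a library size factor), a class that held 22 members, 16.6% were called lower and 23.3% higher after Oxali. The 20 members whose fall passed the threshold in each of 14 alternative analyses were Srebf2, Insig1, Hmgcs1, Mvk, Pmvk, Idi1, Fdps, Fdft1, Sqle, Lss, Cyp51, Msmo1, Nsdhl, Ebp, Sc5d, Stard4, Acly, Elovl6, Scd1 and Scd2.

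After Cis, 11 of the 30 genes were lower than in control, 5 were higher and 14 were not called. The background was 14.0% lower and 17.8% higher over all genes, so the share of members called higher (16.7%) was near the background and the share called lower (36.7%) above it. The median log2 fold change of the members was -0.06, and the groups were separate for 24 of 30 genes, compared with 69.4% of all genes. Among the 4959 abundant genes 33.0% were called higher and 16.3% lower. The number of calls after Cis depended on each library. Without control replicate 1 or 2 there were 9 and 7 calls, without either Oxali library 10, and without either Cis library 5, in place of 16. Acat2 (higher), Sqle and Scd2 (both lower) were past the threshold in each of the 14 alternatives. With edgeR's quasi-likelihood test 7 in place of 5 members were called higher. With scaling by total counts 3 were higher and 13 in place of 11 lower, since Idi1 (DESeq2 adjusted p = 0.139) and Fasn (adjusted p = 0.0643) were then not called and Srebf1 and Hmgcs1 were, and the share of higher genes among all calls was 43.4% in place of 56.0%.

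Comparing the drugs with each other at the same dose and time, 23 of the 30 genes were lower after Oxali than after Cis, 0 were higher, also at an unadjusted p below 0.05 and with edgeR, and 7 were not called. Over all genes, 14.0% were lower and 10.7% higher in this comparison, and among the abundant genes 24.3% were lower and 14.6% higher. The drug groups were separate for 29 of 30 members, compared with 68.0% of all genes. The median log2 difference of the members was -0.33. Of the 23 calls, 15 held in each alternative. Leaving out Cis replicate 2 left 15 calls, and leaving out another single library left 16 to 23. The comparisons of each drug with control share the control libraries, so their values are given side by side and not as independent results.

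**Figure D2:**
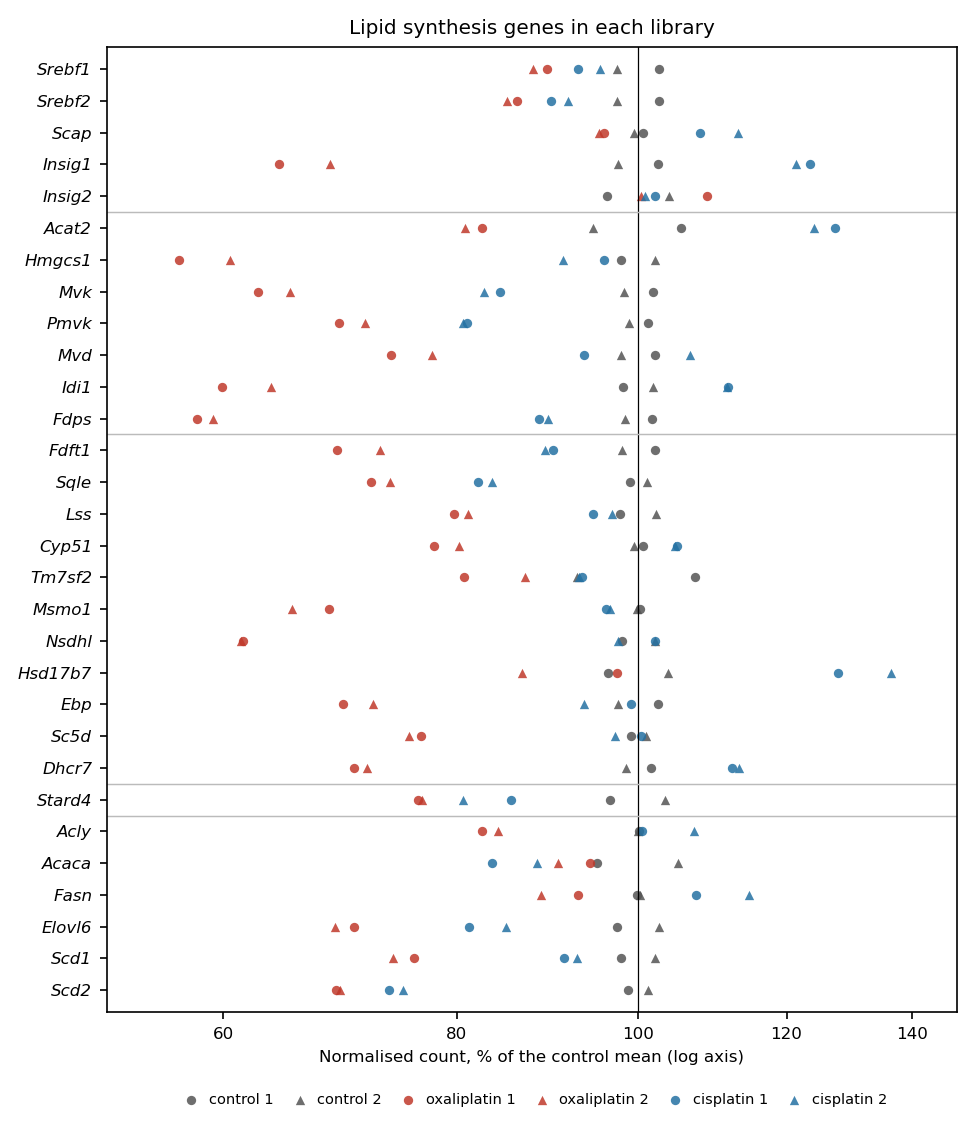
Each row is a gene and each symbol 1 of the 6 libraries, placed by its normalised count as a percentage of the control mean on a log axis. Horizontal lines separate regulators, early mevalonate steps, squalene and sterol steps, Stard4 and fatty acid synthesis. Oxali libraries lie left of both control libraries for 28 of 30 genes, Insig2 and Hsd17b7 being the exceptions, while Cis libraries lie on either side of control.

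Among the 5 regulators, Insig1 responded in opposite directions to the drugs. Insig1 encodes the endoplasmic reticulum anchor of SCAP, and is itself a target gene of SREBP. Normalised counts of Insig1 (ENSMUSG00000045294, chromosome 5, 28071363 to 28078662) were 1568 and 1493 in control, 983 and 1047 in Oxali and 1889 and 1857 in Cis libraries. The 3 groups did not overlap, with Oxali at the bottom and Cis at the top. The log2 fold change was -0.59 ± 0.08 (SE) after Oxali (DESeq2 adjusted p = 3.48e-12) and 0.29 ± 0.08 after Cis (adjusted p = 8.56e-04). Between the drugs Insig1 differed by -0.88 ± 0.08 (adjusted p = 3.33e-27), the largest difference of the 30 genes. The rise after Cis was lost without control replicate 2 or either Cis library (adjusted p = 0.0546 to 0.0803). Insig2, a second anchor with the same role, had 800.07 and 863 normalised counts in control, 905 and 834 in Oxali and 849 and 838 in Cis libraries. These overlapped in every comparison, and the 95% interval of its log2 fold change ran from -0.13 to 0.26 after Oxali and from -0.18 to 0.22 after Cis.

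The SREBP genes themselves changed little. Srebf2 (ENSMUSG00000022463, chromosome 15, 82147181 to 82205379) had 9175 and 8705 normalised counts in control, 7701 and 7608 in Oxali and 8034 and 8203 in Cis libraries. Both drug groups were below both control libraries, and Oxali was below Cis. Srebf2 fell by 0.22 ± 0.04 on the log2 scale after Oxali (adjusted p = 3.08e-06) and by 0.14 ± 0.04 after Cis (adjusted p = 0.00577), and the latter call was lost without control replicate 1 or either Cis library (adjusted p = 0.0593 to 0.153). Srebf1 had 3432 and 3257 normalised counts in control, 2987.5 and 2939 in Oxali and 3106 and 3188 in Cis libraries. It fell by 0.17 ± 0.06 after Oxali (adjusted p = 0.0114), a call lost without any one library other than control replicate 2 (adjusted p up to 0.239). After Cis its value was -0.09, with a 95% interval from -0.20 to 0.02, and with scaling by total counts it was -0.14 and passed the threshold (adjusted p = 0.049). The drugs were not called different for either gene, with unadjusted intervals of the log2 difference from -0.17 to -0.0004 for Srebf2 and from -0.20 to 0.02 for Srebf1. Scap, the escort of SREBP, was not called in either drug against control, with log2 values of -0.07 after Oxali and 0.14 after Cis, although the latter passed with edgeR's quasi-likelihood test (adjusted p = 0.0225). It was 0.21 ± 0.07 lower after Oxali than after Cis (adjusted p = 0.013), and this call was lost without any one Oxali or Cis library (adjusted p = 0.111 to 0.306). The counts of Scap and Srebf1 share exonic bases with genes on the opposite strand, and whether the counting used strand is not stated. Among the genes below, the same holds for Hmgcs1 (557 bases), Idi1 (323), Fdft1 (774), Lss (381), Cyp51 (166) and Elovl6 (34).

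The 7 genes of the early mevalonate steps all fell after Oxali, with a median log2 fold change of -0.65. Hmgcs1 makes HMG-CoA from acetoacetyl-CoA. Its normalised counts (ENSMUSG00000093930, chromosome 13, 119690379 to 119708260) were 5505 and 5736 in control, 3193 and 3401 in Oxali and 5391 and 5120.3 in Cis libraries. Oxali libraries stood far below the others, at 58.7% of the control mean (3297 ± 147, SD, n = 2, against 5620.5 ± 163), while Cis libraries lay just below control. The log2 fold change was -0.77 ± 0.06 after Oxali (DESeq2 adjusted p = 1.40e-40), and -0.10 after Cis, with a 95% interval from -0.20 to 0.01. The drugs differed by -0.67 ± 0.06 (adjusted p = 5.70e-31). Hmgcs1 was also the member whose promoter, printed above, held the sterol response element core. With scaling by total counts Hmgcs1 passed the threshold after Cis (-0.15 on the log2 scale, adjusted p = 0.0317).

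Fdps, which makes farnesyl diphosphate, moved in the same way. It had 4443 and 4301 normalised counts in control, 2540.0 and 2590.2 in Oxali and 3867 and 3909.8 in Cis libraries (ENSMUSG00000059743, chromosome 3, 89093588 to 89101959). The groups did not overlap, with Cis between control and Oxali. Fdps fell by 0.77 ± 0.05 after Oxali (adjusted p = 2.45e-46) and by 0.17 ± 0.05 after Cis (adjusted p = 0.00454), and the latter was lost without control replicate 1 or either Cis library (adjusted p = 0.0975 to 0.142). Its exons overlap those of Gm43738 on the same strand by 1124 bases, so its count could have been divided between them. Idi1, which isomerises isopentenyl diphosphate, had 3255 and 3376 normalised counts in control, 1987 and 2111 in Oxali and 3705 and 3697 in Cis libraries (ENSMUSG00000058258, chromosome 13, 8885501 to 8892451). Cis lay above control and Oxali far below it. Idi1 fell by 0.70 ± 0.06 after Oxali (adjusted p = 3.06e-29) and the drugs differed by -0.85 ± 0.06 (adjusted p = 2.37e-44). The rise of 0.16 ± 0.06 after Cis (adjusted p = 0.0225) was lost without any one of the 6 libraries (adjusted p = 0.0748 to 0.243) and with total-count scaling.

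The kinases of the pathway fell after both drugs. Mvk, mevalonate kinase, had 1026 and 990.2 normalised counts in control, 631 and 657 in Oxali and 851 and 834 in Cis libraries. Groups did not overlap, and the log2 fold change was -0.65 ± 0.10 after Oxali (adjusted p = 8.68e-10) and -0.26 ± 0.10 after Cis (adjusted p = 0.0241). Pmvk, phosphomevalonate kinase, fell to 70.3% of control after Oxali and to 80.8% after Cis. The drugs were not called different for Pmvk, where the log2 difference was -0.20 with a 95% interval from -0.40 to -0.01 (adjusted p = 0.128 with DESeq2 and 0.026 with edgeR), but were for Mvk (-0.39 ± 0.10, adjusted p = 6.97e-04), a call lost without Oxali replicate 1 or either Cis library (adjusted p = 0.0526 to 0.107). The falls of Mvk and Pmvk after Cis were lost without any one of the 6 libraries (adjusted p up to 0.264 and 0.154). Mvd, which decarboxylates mevalonate diphosphate, fell to 75.7% of control after Oxali (log2 fold change -0.40 ± 0.11, adjusted p = 0.00311). Its Cis libraries, at 719 and 819 normalised counts, lay on either side of the control libraries at 784.5 and 753. The Oxali call for Mvd was lost without any one control or Oxali library (adjusted p = 0.0508 to 0.147). The difference between the drugs (-0.40 ± 0.11, adjusted p = 0.00322) was lost without either Oxali library or Cis replicate 2 (adjusted p up to 0.237).

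Acat2, which condenses acetyl-CoA at the head of the pathway, moved in opposite directions. Its normalised counts were 2366 and 2124 in control, 1852 and 1814 in Oxali and 2859 and 2788 in Cis libraries (ENSMUSG00000023832, chromosome 17, 12942890 to 12960747). No group overlapped another. Expected counts of Acat2 were not whole numbers in any of the 6 libraries, so some of its reads may have been divided with other genes. Acat2 fell by 0.29 ± 0.07 after Oxali (adjusted p = 4.98e-04) and was 0.33 ± 0.07 higher than control after Cis (adjusted p = 3.02e-05). The drugs differed by -0.62 ± 0.07 (adjusted p = 2.66e-16). The Cis rise held in each alternative, whereas the Oxali fall was lost without control replicate 1 (adjusted p = 0.0788) or Oxali replicate 2 (adjusted p = 0.0507).

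**Figure D3:**
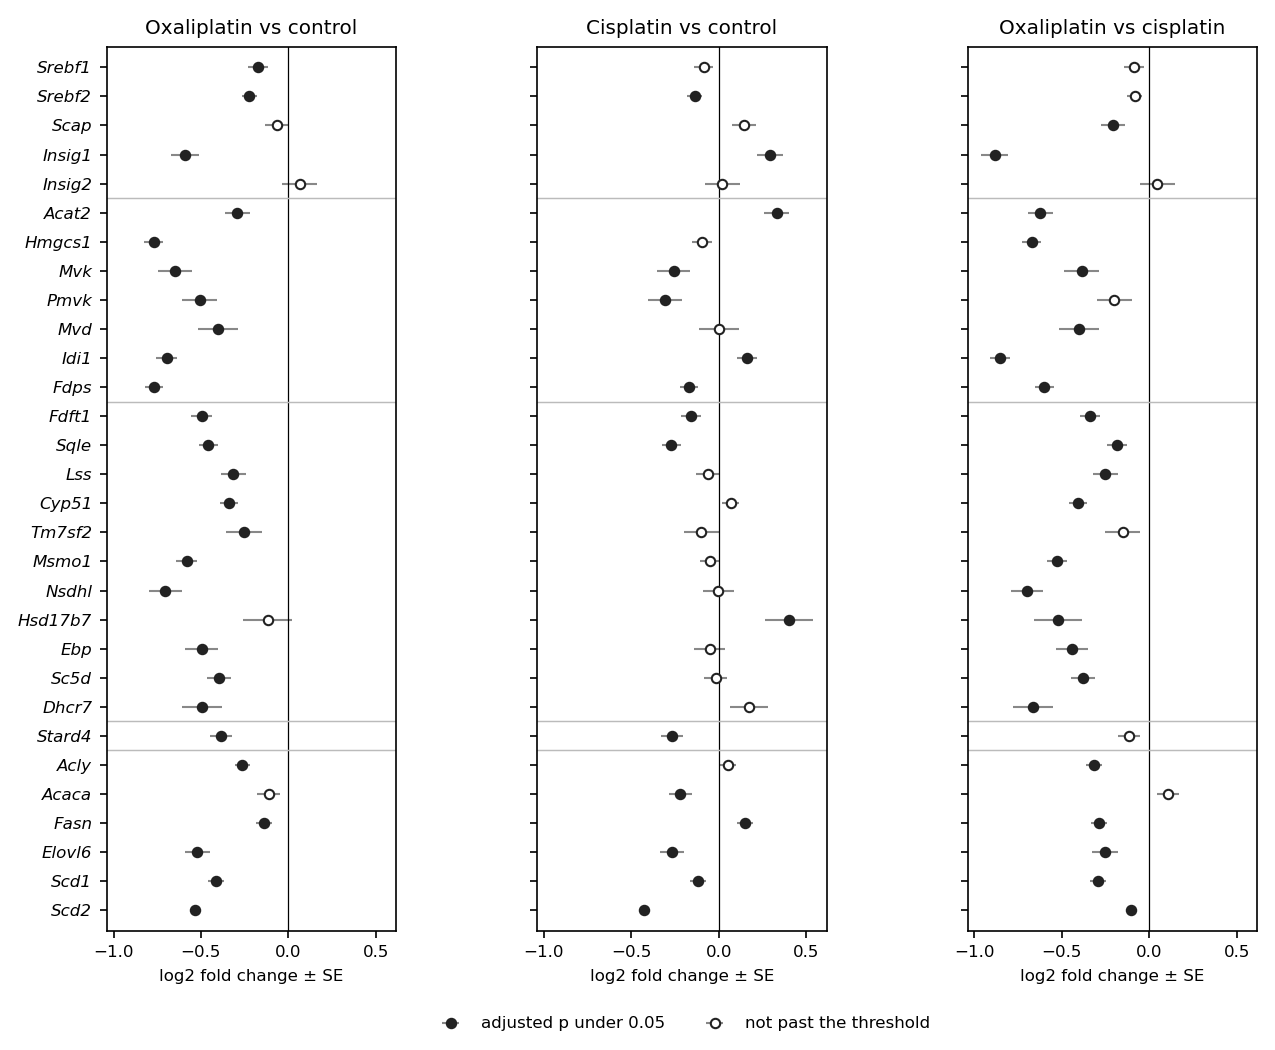
Log2 fold changes with SE (horizontal bars) of the 30 genes in 3 comparisons, in the order of their roles. Filled points passed an adjusted p of 0.05 (DESeq2) and open points did not. In the first panel 26 points are filled, all left of 0, in the second 11 are filled left and 5 right of 0, and in the third 23 are filled, all left of 0.

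Of the 11 enzymes from squalene to cholesterol, 10 fell after Oxali, with a median of -0.46, while after Cis 2 fell (Fdft1 and Sqle), 1 rose (Hsd17b7) and 8 were not called. Summed over the 18 mevalonate and sterol enzymes, counts were 1834 and 1826 CPM in control, 1241 and 1271 CPM in Oxali and 1730 and 1711 CPM in Cis libraries. The Oxali sums were well below the others and the Cis sums slightly below control. Nsdhl, a sterol dehydrogenase of the demethylation steps, stood at the control level after Cis. It had 1074 and 1118 normalised counts in control, 674 and 672 in Oxali and 1118.5 and 1069 in Cis libraries (ENSMUSG00000031349, chromosome X, 72918557 to 72958514). Cis libraries overlapped control and both Oxali libraries lay at 61.4% of the control mean. Its log2 fold change was -0.70 ± 0.09 after Oxali (adjusted p = 1.58e-12), 0.00 after Cis with a 95% interval from -0.18 to 0.17, and -0.70 ± 0.09 between the drugs (adjusted p = 2.24e-12).

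Msmo1, the methylsterol monooxygenase of the same steps, had 3013.5 and 3001 normalised counts in control, 2054.5 and 1963 in Oxali and 2890.0 and 2906 in Cis libraries. Oxali libraries were again the lowest, and Cis lay slightly below control. Msmo1 fell by 0.58 ± 0.06 after Oxali (adjusted p = 6.49e-21), and the interval after Cis ran from -0.17 to 0.06. Ebp, a sterol isomerase, Sc5d, a sterol desaturase, Lss, which makes lanosterol, and Cyp51, which removes a methyl group from it, followed this pattern. They were at 70.9% (Ebp), 76.0% (Sc5d), 80.4% (Lss) and 79.0% (Cyp51) of the control mean after Oxali, and all passed the test against control and against Cis. After Cis they were at 96.3%, 98.8%, 95.7% and 105% of control, and none was called. The difference of Lss between the drugs was lost without any one Oxali or Cis library (adjusted p = 0.0809 to 0.157).

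Fdft1, squalene synthase, and Sqle, squalene epoxidase, were lower after both drugs. Sqle (ENSMUSG00000022351, chromosome 15, 59315077 to 59331192) had 3451 and 3523 normalised counts in control, 2510.3 and 2569 in Oxali and 2864.5 and 2914 in Cis libraries. The 3 groups were separate, with Cis between the others. Sqle fell by 0.46 ± 0.05 after Oxali (adjusted p = 5.74e-15) and by 0.27 ± 0.05 after Cis (adjusted p = 7.54e-06). The difference of -0.19 ± 0.06 between the drugs (adjusted p = 0.00516) was lost without any one Oxali or Cis library (adjusted p = 0.106 to 0.226). Fdft1 fell by 0.50 ± 0.06 after Oxali (adjusted p = 1.40e-15) and by 0.16 ± 0.06 after Cis (adjusted p = 0.0229), the latter being lost without any one of the 6 libraries (adjusted p = 0.0786 to 0.255). Fdft1 shares 774 exonic bases with Ctsb on the opposite strand.

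Hsd17b7 and Dhcr7 stood highest after Cis. Hsd17b7, a ketosteroid reductase of sterol synthesis, had 389 and 419 normalised counts in control, 394 and 349.99 in Oxali and 517 and 552 in Cis libraries (ENSMUSG00000026675, chromosome 1, 169949535 to 169969241). Control and Oxali overlapped, and both Cis libraries were above them. Its log2 fold change was -0.12 after Oxali with a 95% interval from -0.39 to 0.16, and 0.40 ± 0.14 after Cis (adjusted p = 0.0141), which was lost without any one of the 6 libraries (adjusted p = 0.0557 to 0.261). Hsd17b7 was 0.52 ± 0.14 lower after Oxali than after Cis (adjusted p = 0.00131), which was lost without Oxali replicate 2 or either Cis library (adjusted p = 0.0509 to 0.148). Dhcr7, which makes cholesterol from 7-dehydrocholesterol, had 631 and 612 normalised counts in control, 438 and 445 in Oxali and 697 and 703 in Cis libraries. Groups did not overlap, yet the Cis value of 0.17 (95% interval -0.04 to 0.39) was not called by DESeq2, while edgeR's quasi-likelihood test called it (adjusted p = 0.0353). Dhcr7 fell by 0.49 ± 0.11 after Oxali (adjusted p = 1.63e-04, and 0.0504 without Oxali replicate 1) and differed by -0.66 ± 0.11 between the drugs (adjusted p = 1.08e-07). Tm7sf2, a sterol reductase, was the weakest call after Oxali (-0.25 ± 0.10, adjusted p = 0.0462). That call was lost in 9 of 14 alternatives, among them every omission of a library but control replicate 2 (adjusted p up to 0.508), and Tm7sf2 shares 532 exonic bases with Vps51 on the same strand.

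Stard4, a soluble protein that moves cholesterol between membranes, fell after both drugs. Its libraries held 3267 and 3496 normalised counts in control, 2579 and 2591 in Oxali and 2889 and 2724 in Cis. The 3 groups were separate. The log2 fold change was -0.39 ± 0.06 after Oxali (adjusted p = 1.73e-08) and -0.27 ± 0.06 after Cis (adjusted p = 1.44e-04, and 0.0503 without Cis replicate 2). Between the drugs the value was -0.12 with a 95% interval from -0.24 to 0.01, which was not called.

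In fatty acid synthesis 5 of 6 genes fell after Oxali, while 4 fell and 1 rose after Cis. Counts of the 6 genes summed to 3698 and 3805 CPM in control, 2804 and 2782 CPM in Oxali and 3020 and 3113 CPM in Cis libraries. Both drug groups lay below control, and the desaturase gene Scd2 made up most of this sum. Without Scd2, a split chosen after its values were seen, the other 5 genes summed to 32518 and 33365 normalised counts in control, 28117 and 27493 in Oxali and 32099.6 and 33859.8 in Cis libraries. In CPM, the unit of the sum of 6 genes, they were 1468 and 1511 in control, 1260 and 1231 in Oxali and 1407 and 1478 in Cis libraries. In either unit the Cis sums then overlapped control, and the Oxali sums stayed below it. Scd2, which introduces the double bond of monounsaturated fatty acids, had 49388 and 50644 normalised counts in control, 34467 and 34642 in Oxali and 36810.0 and 37433 in Cis libraries (ENSMUSG00000025203, chromosome 19, 44293674 to 44306864). Both drug groups were far below control and close to each other. Scd2 fell by 0.53 ± 0.03 after Oxali (DESeq2 adjusted p = 9.86e-72) and by 0.43 ± 0.03 after Cis (adjusted p = 3.99e-47). The difference between the drugs, -0.10 ± 0.03 (adjusted p = 0.00287), was lost with edgeR's quasi-likelihood test (adjusted p = 0.0538), with scaling by total counts (0.0688), and without either Oxali library or Cis replicate 2 (up to 0.175). Scd1, its near copy on the same chromosome, had 6644 and 6933 normalised counts in control, 5154 and 5023 in Oxali and 6197 and 6294 in Cis libraries. Oxali was again the lowest, with Cis nearer to control than for Scd2. Scd1 fell by 0.42 ± 0.05 after Oxali (adjusted p = 5.10e-18) and by 0.12 ± 0.05 after Cis (adjusted p = 0.027), the latter being lost without any one library but control replicate 1 (adjusted p = 0.0976 to 0.308). Reads common to Scd1 and Scd2 were divided by estimation, so the split between them is uncertain.

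Fasn, Acaca and Acly act upstream of the desaturases. Fasn, fatty acid synthase, had 10988 and 11031 normalised counts in control, 10220.0 and 9772 in Oxali and 11819 and 12621 in Cis libraries (ENSMUSG00000025153, chromosome 11, 120805846 to 120824547). It lay below control after Oxali and above it after Cis. The log2 fold change was -0.14 ± 0.05 after Oxali (adjusted p = 0.0115) and 0.15 ± 0.05 after Cis (adjusted p = 0.00433), and the Oxali fall was lost without either control library or Oxali replicate 2 (adjusted p = 0.0765 to 0.284), the Cis rise without Cis replicate 2 (adjusted p = 0.217). The difference between the drugs, -0.29 ± 0.05 (adjusted p = 4.75e-09), held in each. Acaca, which makes malonyl-CoA, had its lowest values after Cis. Its libraries had 4051 and 4474 normalised counts in control, 4019 and 3859 in Oxali and 3559.5 and 3762 in Cis. Acaca fell by 0.22 ± 0.06 after Cis (adjusted p = 0.00329), and was not called after Oxali, where the interval ran from -0.24 to 0.01, or between the drugs (0.11, 95% interval -0.02 to 0.23). The Cis fall of Acaca was lost without control replicate 2 (adjusted p = 0.164) or Cis replicate 1 (adjusted p = 0.134). Acly, which supplies cytosolic acetyl-CoA from citrate, fell to 83.3% of control after Oxali (-0.26 ± 0.04, adjusted p = 8.70e-08) and stood at 104% after Cis, which was not called. Elovl6, which elongates palmitate to stearate, fell to 69.7% after Oxali (adjusted p = 1.73e-11) and 83.0% after Cis (adjusted p = 0.00102, and 0.0888 and 0.106 without control replicate 2 or Cis replicate 1). The drugs differed for Elovl6 by -0.25 ± 0.07 (adjusted p = 0.00343), a call lost without any one Oxali or Cis library (adjusted p = 0.0554 to 0.177).

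Members also differed widely in level. Counts were divided by the length of all annotated exons of a gene, which can exceed that of its transcripts in these cells. The comparison between genes is therefore rough. Per kilobase of exon, mean normalised counts in control ranged from 79.1 for Hsd17b7 and 107 for Dhcr7 to 9154 for Scd2. Acly (1664), Scd1 (1388), Srebf2 (1244) and Hmgcs1 (1223) came next after Scd2. After Oxali Hmgcs1 stood at 718 and Fdps at 609.6 per kilobase, from 1039 for Fdps in control. Genes that fell after Oxali included Dhcr7 near the bottom and Scd2 at the top of this order.

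**Figure D4:**
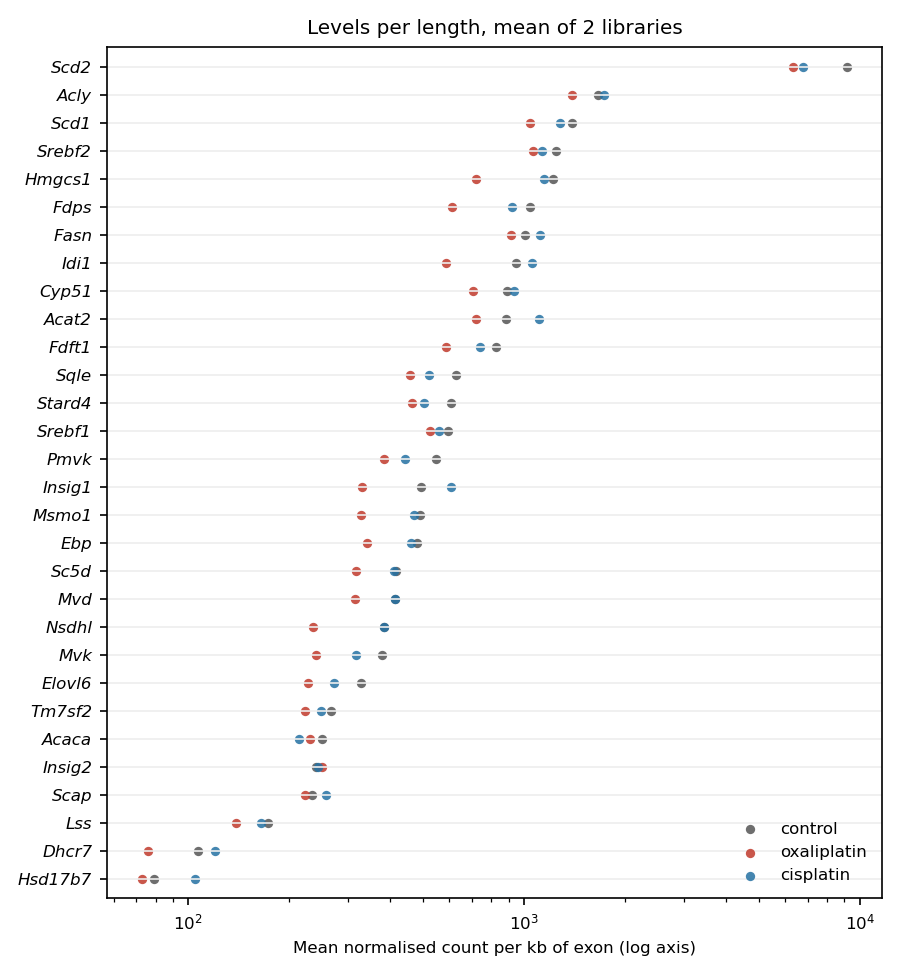
Mean normalised counts per kilobase of exon (log axis, 2 libraries per group) for the 30 genes, ordered by their control level. Scd2 stands apart at 9154 in control, and the Oxali point lies left of the control point for all genes but Insig2.

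Among genes with a promoter sequence, 17 of the 19 with a CCAAT match were lower after Oxali (all but Insig2 and Hsd17b7), as were 3 of the 5 without one, Acat2, Acly and Elovl6. For the GC box the counts were 17 of 20 with and 3 of 4 without a match. For the E-box they went the other way, at 3 of 5 with and 17 of 19 without a match. Over all genes with an adjusted p, 11.8% were called lower after Oxali, a share that was not computed by motif. The counts by motif are descriptions of small groups of genes and were not tested. They rest in part on windows inside genes. Dhcr7 counted as having CCAAT only through such a window, and Acaca as lacking it through its only window.

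Other genes of lipid metabolism, in 7 lists with 103 genes, are given beside the same background of 11.8% lower and 13.3% higher genes after Oxali and 14.0% and 17.8% after Cis. Of 21 genes that passed the filter in the list of other fatty acid and acyl-CoA genes, 38.1% were lower after Oxali. So were 7 of the 14 genes of sterol uptake, storage and movement, and 17.6% of the 17 fatty acid oxidation genes. Each of these lists held 1 gene without an adjusted p after Oxali, which counts as not lower here, while the background leaves such genes out. Among 14 other isoprenoid and sterol genes, 4 were lower and 2 higher after Oxali, with a median log2 fold change of -0.02. After Cis 1 was lower and 2 were higher. The same 21 genes in the list of other fatty acid and acyl-CoA genes included 8 lower and 2 higher after Oxali, and 5 lower and 7 higher after Cis. Fads2, a desaturase of polyunsaturated fatty acid synthesis, fell by 0.76 ± 0.06 after Oxali (adjusted p = 5.83e-39) and differed by -0.71 ± 0.06 between the drugs (adjusted p = 2.41e-33). Elovl5, an elongase of the same route, was 0.35 ± 0.06 higher after Cis than in control (adjusted p = 2.06e-08).

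Genes of SREBP processing and sterol sensing, 16 in number, included 4 lower and 1 higher gene after Oxali and 6 lower and 3 higher genes after Cis. Mbtps1, which encodes the Golgi protease that first cuts SREBP, fell by 0.35 ± 0.05 after Oxali (adjusted p = 2.84e-12) and by 0.20 ± 0.05 after Cis (adjusted p = 7.47e-05). Sp1 fell by 0.52 ± 0.07 after Cis (adjusted p = 2.87e-11) and by 0.19 ± 0.07 after Oxali (adjusted p = 0.0384). Of 14 genes of sterol uptake, storage and movement, 7 were lower and 1 higher after Oxali, with a median of -0.28, and 3 were lower and 3 higher after Cis. Lrp8, a lipoprotein receptor, fell by 0.73 ± 0.11 after Oxali (adjusted p = 2.18e-09) and by 0.44 ± 0.11 after Cis (adjusted p = 4.68e-04). Npc2, which binds cholesterol in the lysosome, fell by 0.23 ± 0.05 after Oxali (adjusted p = 1.45e-04), was 0.34 ± 0.05 higher than control after Cis (adjusted p = 1.24e-09) and was 0.57 ± 0.05 lower after Oxali than after Cis (adjusted p = 1.78e-25).

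Among 12 genes of glycerolipid synthesis 3 were lower after Oxali, and 3 were lower and 1 higher after Cis. They included Lpcat3, a phospholipid acyltransferase (-0.31 ± 0.07 after Oxali, adjusted p = 2.23e-05, and -0.23 ± 0.07 after Cis, adjusted p = 0.00285). Gpam, which starts triglyceride synthesis, fell by 0.55 ± 0.11 after Cis (adjusted p = 1.12e-05) and stood at -0.03 after Oxali, which was not called. Of the 5 LXR receptors and targets tested, only Plin2, a lipid droplet coat protein, was called against control. Plin2 was 0.20 ± 0.07 higher after Oxali (adjusted p = 0.0211) and 0.58 ± 0.07 higher after Cis (adjusted p = 5.91e-15). In fatty acid oxidation 3 of 17 tested genes were lower and 1 higher after Oxali, and 5 lower and 2 higher after Cis. Cpt2, a carnitine acyltransferase of mitochondria, fell by 0.61 ± 0.12 after Oxali (adjusted p = 2.53e-06) and by 0.58 ± 0.12 after Cis (adjusted p = 4.89e-06).

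**Figure D5:**
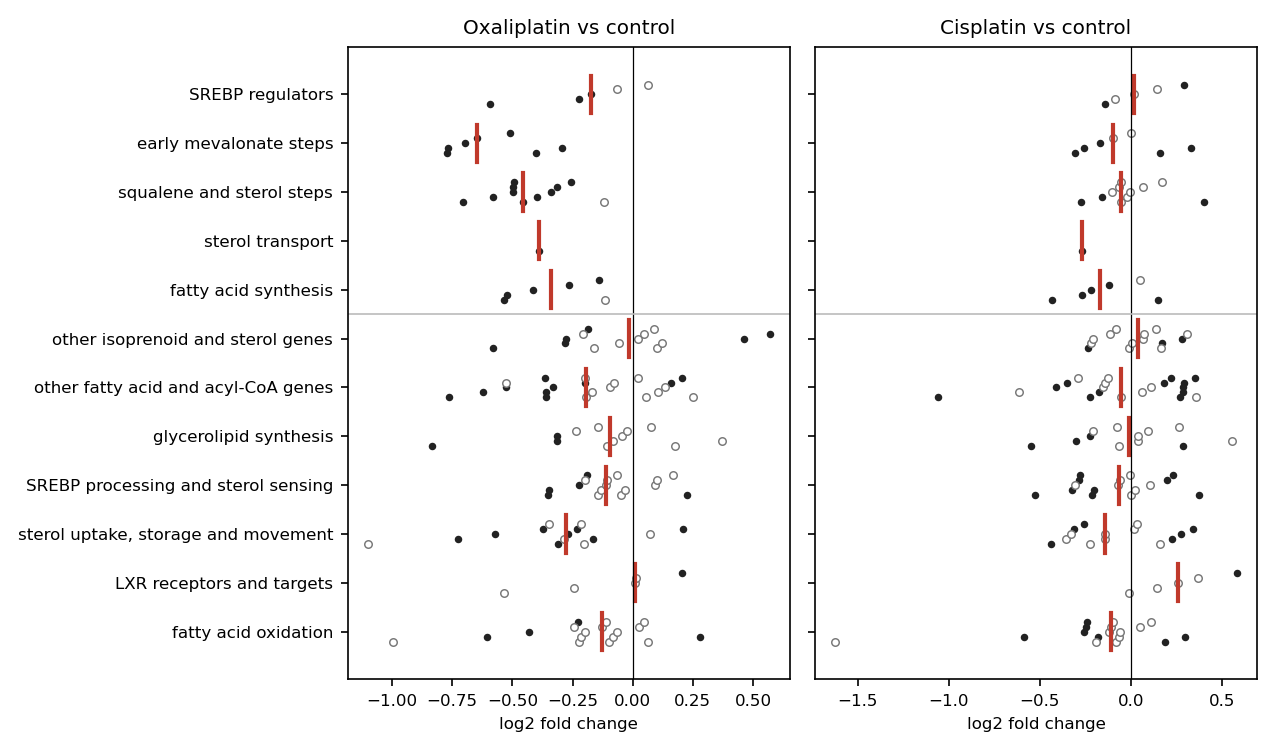
Log2 fold changes of single genes in 5 member groups (above the horizontal line) and 7 further lists (below it), against control, with 1 panel per drug and a separate scale in each. Filled points passed an adjusted p of 0.05, open points did not, and red bars are list medians. After Oxali the medians of the early mevalonate and the squalene and sterol groups lie at -0.65 and -0.46, compared with -0.28 to 0.01 in the 7 further lists.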

How the data were processed

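RNA was measured in 6 TRAMP-C2 libraries, 2 per group, with groups and replicate numbers from the sample labels. The authors deposited expected counts per gene, estimated by RSEM, and a stranded mRNA kit was used per the labels. The submitters' processing notes name STAR 2.5.3a, RSEM 1.3.0 and GRCm38.p6. The study's methods name another counting program for its in vitro RNA-seq, and the strand setting is not given in the sources used here. RSEM divides reads that fit several genes between them, which leaves near copies and overlapping genes uncertain. Symbols and positions came from GENCODE M21, where 54409 of 54446 identifiers matched.

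Expected counts were rounded, and a gene had to reach 10 counts in 2 or more libraries to be tested. A single DESeq2 1.42.0 fit (R 4.3.3) took in the 6 libraries with the group as its only term, with median-of-ratios scaling (size factors 0.964 to 1.08), two-sided Wald tests, unshrunken log2 fold changes and Benjamini-Hochberg adjustment over all genes in each comparison, at 0.05. Independent filtering left an adjusted p for 12056 genes in both comparisons that include oxaliplatin, and for 13216 in cisplatin against control. Intervals are 95% Wald intervals. No gene set was tested. The fit was run on simulated data with changes larger than any of the members, so the simulation does not show how well changes of their size are found.

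The alternatives, 14 in all, were edgeR 4.0.16 (quasi-likelihood), TMM or total-count scaling, changed filters, only the libraries compared, a replicate block and leaving out each library in turn, where a lone library is assumed to vary like the other groups. Named genes are the members and, in each of the 7 further lists, the called gene with the smallest adjusted p in each comparison, except some genes that are not reported here. Members and lists were chosen with earlier results of these data known. Promoter sequences came from RefSeq, and were shown only where the window overlapped no GENCODE exon.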

Additional observations from a re-analysis of the deposited data

How the results depend on the processing

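Across 14 alternatives, no member turned sign after oxaliplatin against control, and 395 of 420 member values kept their side of the threshold. For cisplatin against control 356 of 420 did, and 8 values turned sign without being called. For oxaliplatin against cisplatin 387 of 420 did, and 1 turned sign without being called. With a replicate block, 10 members were called after cisplatin (3 higher, 7 lower), and over all genes 869 were lower after oxaliplatin, 1130 lower after cisplatin, and 741 higher and 1120 lower after oxaliplatin than after cisplatin. Libraries with the same number did not deviate together (r = 0.0694, -0.0465 and -0.212 between groups), so the numbers were not treated as pairs. With edgeR's quasi-likelihood test 2285 genes were lower after oxaliplatin and 3017 lower after cisplatin, compared with 1421 and 1848, and 2304 in place of 1289 were higher after oxaliplatin than after cisplatin. Total-count scaling left 3 members higher and 13 lower after cisplatin, turned Insig2 to -0.0278 there, and moved the share of higher calls between the drugs from 43.3% to 54.3%, with the median log2 fold change of all genes at -0.0487 after cisplatin and 0.0309 between the drugs.

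Leaving out 1 library at a time gave 21 to 24 members lower after oxaliplatin. After cisplatin 5 to 10 members were called, 1 to 3 of them higher and 3 to 7 lower, and between the drugs 15 to 23 were lower. Over all genes the ranges were 643 to 1170 higher and 544 to 974 lower after oxaliplatin, 1192 to 1764 higher and 764 to 1210 lower after cisplatin, and 417 to 1029 higher and 743 to 1410 lower between the drugs. Fewer libraries entered these fits, and other causes were not tested. Log2 values that changed sign in this way ranged, for cisplatin against control, from -0.0334 to 0.0764 for Insig2, -0.0983 to 0.0917 for Mvd, -0.2027 to 0.0052 for Tm7sf2, -0.0352 to 0.0278 for Nsdhl and -0.0410 to 0.0037 for Sc5d, and for oxaliplatin against cisplatin from -0.0173 to 0.1007 for Insig2. Every member lay far above the limit of 3 counts, the lowest group mean being 372 normalised counts (Hsd17b7 after oxaliplatin). The cause of the changes under edgeR, the block and total-count scaling was not tested.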
